A study of Mus musculus with 2 samples.

Results

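The 10 receptors described here are G-protein coupled receptors of the pancreatic β cell that raise or lower the secretion of insulin: Glp1r, Gipr, Gcgr, Gpr119, Ffar1, Chrm3, Casr, Adra2a, Sstr3 and Galr1. They were chosen by name for what they do, and every array probe whose RefSeq accession belongs to 1 of them was taken. This gave 11 probes of 10 genes, out of 39417 probes and 20653 named genes on the array. The RNA came from MIN6 cells, a transgenic C57Bl/6 mouse-derived insulinoma line at passages 15 to 20. The cells labelled FTO had received lentivirus made from pLVX-IRES-ZsGreen-mFTO, which carries mouse FTO together with the green reporter ZsGreen, and the control cells had received lentivirus of the empty vector, which carries the reporter alone. Both cultures were exposed to the virus together with polybrene at 8 µg/ml. Transduction was judged by green fluorescence after 48 h, and whether the cells were sorted is not given in the sources used here. There was 1 one-color Agilent array per condition, both from the same scan, so the differences below have no replicate check and carry no p-value. The arrays are called the FTO array and the control array after their labels.

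Glucose starts insulin release by closing potassium channels and letting calcium into the β cell, and receptors at the membrane then set how much insulin leaves the cell. Receptors coupled to the G protein Gs raise cAMP, which acts through protein kinase A and Epac2. Receptors coupled to Gq act through phospholipase C, which releases calcium from internal stores. Receptors coupled to Gi or Go lower cAMP and restrain exocytosis, and they carry the signals by which adrenaline, somatostatin and galanin stop insulin release.

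Probes of all 10 receptors were detected in MIN6 cells. Each of the 11 probes carried, on both arrays, the flag by which the image software marks a spot as well above background, and a probe with this flag is called detected. The lowest signal of any detected probe was 14.0 on the FTO array and 10.7 on the control array. Over the whole array 82.0% and 84.8% of the probes were detected, so detection by itself does not set the receptors apart. Of 8 endothelial, stromal and immune marker genes on the array, 6 were also detected on both arrays. The flag of a single probe therefore does not by itself establish a transcript. None of the 10 receptors differed by more than 2-fold between the arrays, whereas 3.21% of the 18507 named genes detected on 1 array or both did (1.31% higher and 1.9% lower on the FTO array). Read against this background, the count of 0 is no result about the receptors. The arrays read RNA of the whole culture, in which fewer expressing cells and less RNA per cell cannot be told apart.

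Fto, the gene carried by the virus, had a single probe (NM_011936). It read 7301 on the FTO array and 5179 on the control array. The log2 difference after normalization, 0.06, was smaller than its spot error of 0.20, so Fto does not check the labels and all directions given here are those of the labels. Whether this probe reads the RNA made from the virus is not known from the sources used here.

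Signals of the Gs-coupled receptors are given first, as intensities before normalization between the arrays. Glp1r, the receptor of the incretin hormone GLP-1, had a pair of probes for the same transcript (NM_021332). Its brighter probe (A_55_P2132089) had a signal of 1526 on the FTO array and 1334 on the control array, and its dimmer probe (A_55_P2016471) 731 and 566. Both Glp1r probes were thus brighter on the FTO array before normalization. Gipr (NM_001080815), the receptor of the other incretin, GIP, had signals of 3244 on the FTO array and 2434 on the control array. Gcgr (NM_008101), the glucagon receptor, by which glucagon from neighbouring α cells can stimulate β cells, had signals of 688 and 461. Gpr119 (NM_181751), a receptor of lipid amides that raises cAMP, had signals of 309 and 215. Each of these 3 receptors was likewise brighter on the FTO array.

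The Gq-coupled receptors covered a wide span of intensities. Ffar1 (NM_194057), also called GPR40, senses long-chain fatty acids and amplifies glucose-stimulated secretion. Its signal was 51.0 on the FTO array and 50.4 on the control array. The raw spot read 88 against a local background of 34 on the former, and 93 against 32 on the latter, so Ffar1 was the receptor measured nearest to its background. Chrm3 (NM_033269), the M3 muscarinic receptor through which acetylcholine promotes secretion, had signals of 1824 on the FTO array and 1351 on the control array. Casr (NM_013803), the calcium-sensing receptor, had signals of 2952 and 2006. The spots of Chrm3 and Casr lay far above their local background of 32 to 36.

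The Gi-coupled receptors all gave strong spots. Adra2a (NM_007417), the α2A-adrenergic receptor by which adrenaline and noradrenaline inhibit insulin release, had signals of 48340 on the FTO array and 35719 on the control array. Sstr3 (NM_009218), a somatostatin receptor, had signals of 47412 and 36450. Galr1 (NM_008082), a receptor of the neuropeptide galanin, had signals of 9163 and 6639. No spot on either array was saturated. The intensity of a probe also depends on its sequence, so these signals show detection, and they do not rank the receptors by the amount of their RNA.

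**Figure D1:**
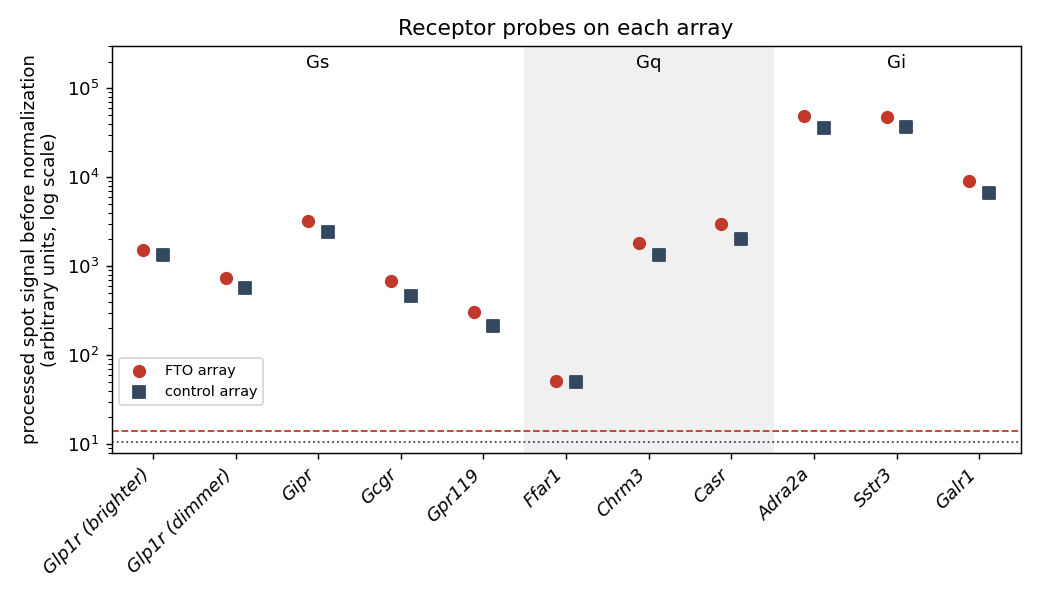
Processed spot signal (arbitrary units, log scale) of each receptor probe on the FTO array (red circles) and on the control array (blue squares), grouped by the G protein each receptor couples to. The red dashed line and the blue dotted line mark the lowest signal of a detected probe on each array (14.0 and 10.7). All 11 probes lie above both lines, Ffar1 nearest to them, and heights of different probes cannot be compared with each other.

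The FTO array was brighter as a whole, which has to be removed before receptors can be compared. The ratio of the signals, FTO over control, had a median of 1.35 over the 11 receptor probes, with a range from 1.01 for Ffar1 to 1.49 for Gcgr. Over all probes of named genes tested the median ratio was 1.29. The receptors' brighter signals thus followed the array. After quantile normalization, which gives both arrays the same distribution of signals, the median log2 difference, FTO minus control, was 0.03 over the 10 receptors and 0.01 over all named genes tested, with the brightest probe taken for each gene. By this measure 7 of the 10 receptors lay above 0 and 3 below.

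The normalized differences of the receptors were small in every case. The lowest of the 11 probes was at -0.20 and the highest at 0.24, inside the range from -0.48 to 0.43 that held the middle 90% of all named probes tested. Because dim spots scatter more, each receptor was also set beside tested probes of similar normalized signal, and all 11 probes lay within the middle 90% of those. A pair of error estimates was available within an array. The spot error comes from the error model of the image software and was 0.20 for each receptor probe except Ffar1, at 0.25. The scatter between repeated spots, from probes printed 10 times at other places of the same array, was smaller, with a combined SD for a difference between 0.07 and 0.09 for all receptor probes but Ffar1, at 0.27. Of the 11 probes, 2 differed by more than their spot error and 4 by more than the SD of repeated spots, namely Gcgr, Gpr119, Casr and the brighter Glp1r probe. Neither estimate contains the variation between cultures.

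Gcgr and Gpr119 were the receptors with the highest differences. Gcgr had a log2 difference of 0.24, or 17.9% more signal on the FTO array, and Gpr119 of 0.24, or 18.4% more. Both exceed the spot error of 0.20 and the SD of repeated spots (0.08 for Gcgr and 0.09 for Gpr119). The middle 90% of tested probes of similar signal ran from -0.35 to 0.32 at the signal of Gcgr and from -0.45 to 0.37 at that of Gpr119, so both receptors lie inside the range of their neighbours in signal. Casr was next with a log2 difference of 0.16, below its spot error of 0.20 and above its SD of repeated spots of 0.08.

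Glp1r was measured by both of its probes with different outcomes. The brighter probe had a log2 difference of -0.20, or -12.8% on the FTO array, and the dimmer probe one of 0.03, or 1.79%. The gap of 0.22 between them is larger than the 0.11 that the scatter of repeated spots gives for such a pair. Since both probes report the same transcript record, no direction is given for Glp1r. Ffar1 was at -0.11 on the log2 scale (spot error 0.25), and probes of similar signal ran from -0.77 to 0.64, which makes it the least precise of the receptors.

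The other receptors were nearly level between the arrays. The log2 difference was 0.02 for Gipr, 0.04 for Chrm3, 0.02 for Adra2a, -0.04 for Sstr3 and 0.04 for Galr1. In each case it was smaller than the SD of repeated spots. Grouped by coupling, the median log2 difference was 0.13 for the 4 Gs-coupled receptors (range -0.20 to 0.24), 0.04 for the 3 Gq-coupled receptors (range -0.11 to 0.16) and 0.02 for the 3 Gi-coupled receptors (range -0.04 to 0.04). The Gs group held both the lowest and the highest value, but the lowest is the brighter Glp1r probe, whose other probe was at 0.03. The Gi-coupled receptors also had the brightest probes, and dim spots scatter more, so the spreads cannot be compared directly. Whether the groups differ was not tested.

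**Figure D2:**
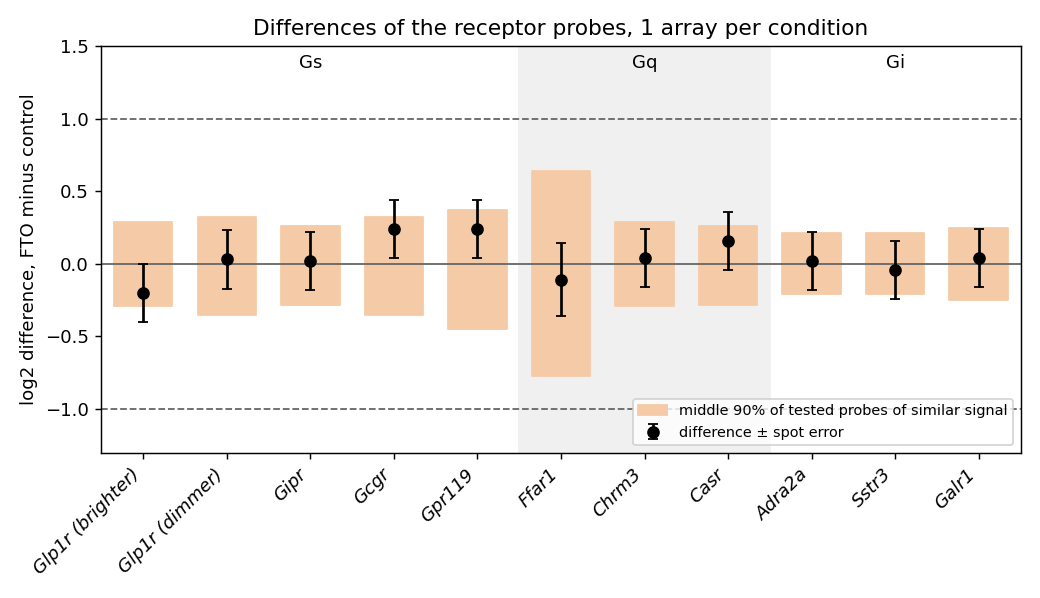
Log2 difference, FTO minus control, of each receptor probe after quantile normalization (black points) with the spot error of the image software (bars) and the middle 90% of tested probes of similar signal (orange boxes). Dashed lines mark a 2-fold difference. All points lie between -0.20 and 0.24 and inside their boxes.

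Directions of the smallest differences depended on the processing. Of 10 other ways of processing, 4 change filters, the dimmest signals or how probes are combined and left each receptor probe at its value. These 4 keep the normalized values of such probes, so they could not move them. Averaging its probes put Glp1r, as a gene, at -0.09. Over the 6 that compute the signals anew, 5 probes stayed above 0 (Adra2a, Casr, Chrm3, Gcgr and Gpr119), 2 stayed below 0 (Ffar1 and the brighter Glp1r probe), and 4 reached or crossed 0 (Gipr, Sstr3, Galr1 and the dimmer Glp1r probe). Gcgr ranged from 0.15 to 0.24, Gpr119 from 0.10 to 0.27 and Casr from 0.13 to 0.22. Ffar1 was the receptor that moved most, to -0.41 when each array was scaled by its 75th percentile, a setting that also moved the median of all named probes tested to -0.06. The range over all receptors and settings, -0.41 to 0.27, holds no 2-fold difference. Of these settings, the authors' quantile normalized table and the keeping of outlier spots gave every receptor probe its reported value again. The array surface was divided into 35 blocks, and a block is called low where at least 15% of the spots of dim repeated probes fell short of their probe's median by more than 0.5 on the log2 scale. There were 6 low blocks on the FTO array and 2 on the control array, and none of the 11 receptor probes lies in any of them.

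**Figure D3:**
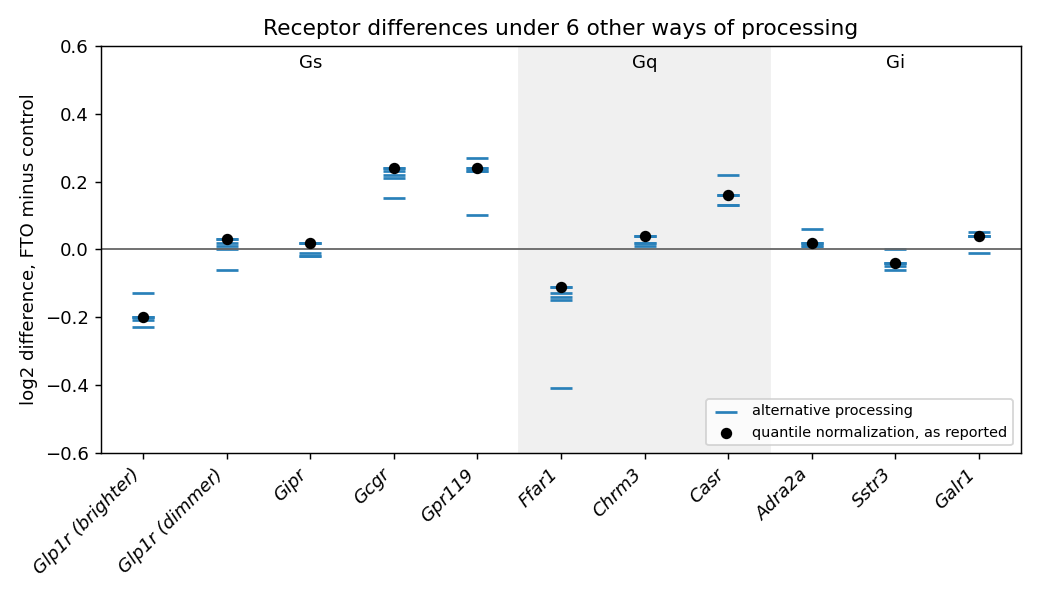
Log2 difference, FTO minus control, of each receptor probe as reported (black points) and under the 6 other ways of processing that compute the signals anew (blue dashes). The values of Gcgr, Gpr119, Casr, Chrm3 and Adra2a stay above 0, those of Ffar1 and the brighter Glp1r probe stay below 0, and the lowest value is -0.41, for Ffar1 under scaling by the 75th percentile.

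To place the receptors among their relatives, 53 other receptors were examined, listed by the G protein they couple to. Of these, 49 were detected on 1 array or both. With the signals taken as they stand, none was more than 2-fold higher and 2, Drd2 and Chrm2, were more than 2-fold lower on the FTO array, beside 1.31% higher and 1.9% lower of all named genes tested. With counts this small nothing is read from the comparison. The median log2 difference was -0.04 over 13 other Gs-coupled receptors, -0.03 over 13 other Gq-coupled receptors and -0.03 over 23 other Gi-coupled receptors, beside 0.01 over all named genes tested.

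Among the Gi-coupled relatives, Drd2 (NM_010077), a dopamine receptor, had signals of 124 on the FTO array and 231 on the control array. Its log2 difference of -1.13 had a spot error of 0.21, and its only spot lies in a low block of the FTO array. Chrm2 (NM_203491), the M2 muscarinic receptor, was detected on the control array only, with a signal of 17.7. It was at least 1.28-fold lower on the FTO array, a bound taken after normalization against the lowest normalized signal of a detected probe. After normexp, a background correction that damps differences between dim spots, neither was past 2-fold, with -0.81 for Drd2 and -0.18 for Chrm2. Among genes detected on both arrays the highest of this list was Htr1d, a serotonin receptor, at 0.25, from a low block of the control array. Of the somatostatin receptors, which share their ligand with Sstr3, Sstr5 had a log2 difference of 0.06, Sstr1 of -0.13, Sstr2 of -0.48 and Sstr4 of -0.87. Sstr4 had signals of 193 and 290 and a spot error of 0.21, and its probe lies outside the low blocks.

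Among the other Gs-coupled receptors Ghrhr, the receptor of growth hormone-releasing hormone, was highest. Its signals were 96.0 on the FTO array and 45.1 on the control array, with a log2 difference of 0.94 and a spot error of 0.22. It fell short of 2-fold, and was 0.44 after normexp. Sctr, the secretin receptor, was lowest at -0.46 (spot error 0.20), with signals of 329 and 363. A pair of dimmer Sctr probes was also lower, at -0.76 for the one detected on both arrays, whose spot lies in a low block of the FTO array, and by at least 1.23-fold for the one detected on the control array only. Vipr1, a receptor of the peptides VIP and PACAP, read 39438 and 28550, with a log2 difference of 0.03. Of the other Gq-coupled receptors, Chrm5, a muscarinic receptor, was highest at 0.41 (spot error 0.44) and Adra1d, an α1-adrenergic receptor, lowest at -0.31 (spot error 0.25). Both were dim, with no signal above 37.7. A dimmer Adra1d probe, in a low block of the FTO array, was at 0.41 (spot error 0.38), so no direction is given for Adra1d. Cckar, the cholecystokinin receptor, had a log2 difference of 0.14.

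The signalling genes behind the receptors lay on both sides of 0. Of 105 such genes, 102 were tested, and their median log2 difference was 0.00, with 54 genes above 0 and 47 below. A single one, Adcy5, had a probe past 2-fold, beside 3.21% of all named genes tested, and nothing particular to these lists is read from the counts below. All 28 G protein subunits were detected on both arrays, with a median of 0.00. They lay between -0.42 for Gng11 and 0.39 for Gnb4, and the brightest probes of Gnas, which encodes the α subunit of Gs, and Gnaq, that of Gq, had log2 differences of 0.01 and 0.08. Gnai2, an α subunit of Gi, was at -0.20. None of the 28 passed 2-fold, but the dimmer of the Gnaz probes, for an α subunit of the Gi family, stood at the limit with a log2 difference of -1.0 (spot error 0.21, in a low block of the FTO array), while its brighter probe was at 0.00.

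The cAMP pathway was represented by 34 adenylyl cyclases, phosphodiesterases and cAMP effectors, with a median log2 difference of 0.04. Adcy8, a calcium-stimulated adenylyl cyclase, was highest at 0.63 (spot error 0.43, signals of 19.1 and 12.3), and Adcy9, another adenylyl cyclase, was lowest at -0.35 (spot error 0.20). Rapgef4, which encodes Epac2, had a log2 difference of 0.21, and Prkaca, a catalytic subunit of protein kinase A, of -0.18. A single probe of the pathway was past 2-fold. It was 1 of 3 probes of Adcy5, detected on the FTO array only and there at least 1.73-fold higher, whereas the other Adcy5 probes were at 0.04, in a low block of the FTO array, and 0.17.

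In the phospholipase C and calcium release pathway 15 of 16 genes were tested, with a median log2 difference of 0.07 and none past 2-fold. Plcb1, a phospholipase C that Gq activates, was highest. Its probes gave signals of 4620 and 1009 on the FTO array and 2347 and 580 on the control array, with log2 differences of 0.57 and 0.44, each with a spot error of 0.20. Both Plcb1 probes were thus higher by more than their spot error, and both lie in low blocks, the brighter one on the control array and the dimmer one on the FTO array. Plcb2, another member of the family, was lowest at -0.54 (spot error 0.21), in a low block of the FTO array, while its second probe, outside such blocks, was at 0.04. Of the other genes named from these lists, Gnb4, Rgs14 and Cckar were read in low blocks of the FTO array, and Adcy9 and Sstr1 in low blocks of the control array. The part of the array surface in these values was not tested.

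Regulators that switch receptors off, the receptor kinases, arrestins and RGS proteins, and the RAMP proteins that accompany some receptors gave 25 tested genes of 27, with a median log2 difference of -0.06 and none past 2-fold. They ranged from -0.36 for Rgs14 to 0.33 for Rgs18 (signals of 17.8 and 14.0), with Grk2, a receptor kinase, at 0.15 and Arrb2, an arrestin, at -0.17.

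Genes for the receptors' own ligands were detected in the culture as well. Gcg, which encodes glucagon and GLP-1, the ligands of Gcgr and Glp1r, gave 257411 on the FTO array and 243558 on the control array, with a log2 difference of 0.01, and 2 of its 10 spots lie in low blocks of the FTO array. Gal, which encodes galanin, read 2197 and 1630, with a log2 difference of 0.03, and Sst, which encodes somatostatin, read 1834 and 1225, with a log2 difference of 0.19. These ligand genes differed by less than the spot error of 0.20 after quantile normalization. With each array scaled by its 75th percentile, Gcg was at -0.35, Gal at 0.01 and Sst at 0.16. Gip, the ligand gene of Gipr, was dim, with signals of 57.7 and 26.7. Its log2 difference of 1.0 (spot error 0.25) was just past 2-fold, and its spot lies in a low block of the FTO array. With each array scaled by its 75th percentile, by cyclic loess or with normexp, Gip was no longer past 2-fold. The median of the 7 ligand genes was 0.03, with Cort, which encodes cortistatin, lowest at -0.15.

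**Figure D4:**
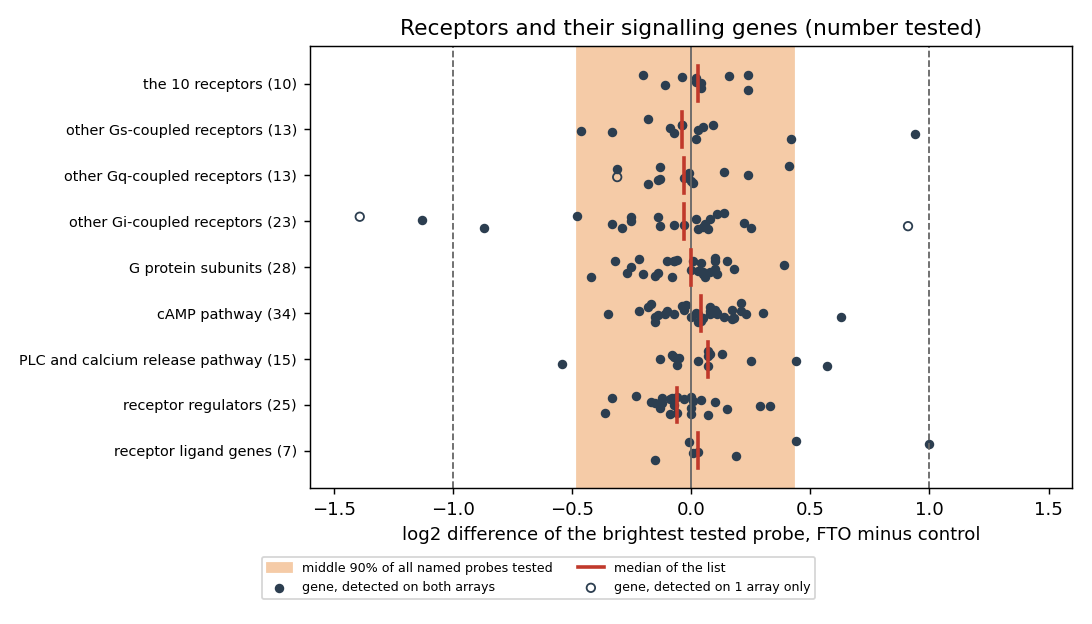
Log2 difference, FTO minus control, of the brightest tested probe of each gene, for the 10 receptors and for 8 lists of related genes (number tested in brackets). Red bars are medians, the orange band is the middle 90% of all named probes tested (-0.48 to 0.43), open circles are genes detected on 1 array only, and dashed lines mark 2-fold. The receptors and every list have a median between -0.06 and 0.07, and Drd2, Chrm2 and Gip are the genes past 2-fold.

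The cell identity behind these values was checked with marker genes. All 16 β cell markers, among them Ins1, Ins2, Pdx1 and Mafa, were detected on both arrays, with a median log2 difference of 0.02 and a range from -0.24 for Ins2 to 0.45 for Slc2a2, the glucose transporter GLUT2. With each array scaled by its 75th percentile, Ins2 was at -0.64 and Slc2a2 at 0.45.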

How the data were processed

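Total RNA of MIN6 cells was compared on 1 one-color Agilent array per condition. The authors deposited spot tables in which Agilent Feature Extraction 11.0.1.1 gives the intensity of each spot after background subtraction and removal of the trend across the array, with an error estimate and flags, not normalized between arrays. The authors also deposited a table of log2 values, quantile normalized in GeneSpring, which served as an alternative. Here, without control and outlier spots, log2 signals were averaged over the spots of each probe. Quantile normalization, which the methods name, was run in limma 3.58.1 (R 4.3.3). Further steps used Python 3.11.15, pandas 2.3.3, numpy 2.4.6 and matplotlib 3.10.9. The normalization was tested on simulated data.

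Probes were named by RefSeq accession in the annotation of GRCm38.p6, which named 27224 of 39417 probes. The array header lists another build, so no coordinates are given. Probes counted as detected by the flag for signals well above background (repeated probes by more than 50% of their spots), and those detected on either array were tested. A difference over 1 or under -1 on the log2 scale counted as 2-fold, with no test, since there is 1 array per condition and their number limits the precision. A gene was counted where any tested probe was past 2-fold, and medians and lists used its brightest tested probe. The spot error combines the error estimates of both spots. Repeated spots came from 399 probes printed 10 times. Low blocks were marked from 79 dim repeated probes.

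The receptors, gene lists, blocks and alternatives were chosen with earlier results of these data known. Named genes are all receptors, Fto, and from each list the genes past 2-fold and the highest and lowest among genes detected on both arrays. Gnas, Gnaq, Gnai2, Rapgef4, Prkaca, Grk2, Arrb2, Vipr1, Cckar, the somatostatin receptors, Gcg, Gal, Sst and Adcy5 were added by role or after their values were seen. So were Gnaz, Ins1, Pdx1, Mafa, Ppy, Hhex and Cela2a. From the lists, genes named beside a changed count passed 2-fold under that setting.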

Additional observations from a re-analysis of the deposited data

How the results depend on the processing

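All 10 receptors were detected on both arrays, also with outlier spots kept. Of the 10 alternatives, 4 change filters, the dimmest signals or how probes are combined and left each receptor probe at its value, which they could not move. With the mean over its probes Glp1r, as a gene, was at -0.09. In the other 6 no receptor passed 2-fold, and their median log2 difference lay between 0.00 and 0.03. Of the 60 values of single receptors in these 6, 59 moved by less than the spot error. The exception was Ffar1 at -0.41 with scaling by the 75th percentile. That error is as large as most of the differences, so a receptor could lose its difference or change sign and still count among the 59. With the 75th percentile scaling Gpr119 was at 0.10 and Gcgr at 0.15, both below their spot error, and Gipr at -0.01. The authors' table and the kept outlier spots gave every receptor its reported value again, and no receptor probe lies in a block left out. Those settings could hardly move the values, so the check rests on the 75th percentile scaling, cyclic loess and normexp. The counts over all named genes depended on the settings. Instead of 243 higher and 351 lower genes there were 144 and 727 with the 75th percentile scaling, 18 and 44 after normexp, 96 and 160 with detection required on both arrays, 547 and 575 with no filter on background, and 144 and 161 with the array blocks left out, and 211 lower genes with dim signals raised. The reported counts are of 18507 genes (1.31% higher and 1.9% lower), the number also tested with the 75th percentile scaling, normexp and dim signals raised. With detection on both arrays they are of 17737 genes (0.541% and 0.902%), and with no filter of 20653. The number tested with the blocks left out is not given here. Counts of listed genes past 2-fold were small, and nothing particular to the lists is read from them. The other Gs-coupled receptors went from 0 to 1 (Sctr) with the 75th percentile scaling, and the other Gq-coupled receptors from 0 to 2 (Adra1a and Chrm1) with no filter on background. The other Gi-coupled receptors went from 2 to 0 with normexp and to 1 with detection on both arrays, with dim signals raised and with the blocks left out. They went to 3 with the 75th percentile scaling (Sstr4 at -1.02) and with no filter on background (Htr1b at 1.21, detected on neither array). G protein subunits went from 0 to 1 (Gnaz) under 75th percentile scaling and under cyclic loess. The cAMP pathway went from 1 to 0 with normexp, detection on both arrays, dim signals raised or the mean over probes, and to 2 with no filter on background, which also took the receptor regulators from 0 to 1 (Rgs1). Receptor ligand genes went from 1 to 0 with the 75th percentile scaling, cyclic loess, normexp or the blocks left out. The causes were not tested. No paired analysis was possible because there is 1 array per condition, and for the same reason no replicate could be left out and no slide block fitted. Signal over background limits Ffar1 most, and differences between cultures of the size seen here were not measurable.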

Other observations

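Markers of other cell types gave the following values. Of 5 α cell markers, 5 were tested, with a median log2 difference of 0.01. Of the delta and PP cell markers, Ppy, which encodes pancreatic polypeptide, read 14003 and 10872, with a log2 difference of -0.08, from a low block of the FTO array, and Hhex, a transcription factor of delta cells, was detected on neither array, its spot likewise lying in such a block. The 8 exocrine markers had a median log2 difference of -0.11, with Cpa1 highest at 0.29, again from a low block of the FTO array, and Prss2 lowest at -0.37 among genes detected on both arrays. Cftr was detected on the FTO array only, where it was at least 1.9-fold higher. It was dim, with signals of 20.55 and 7.88 and a spot error of 0.53, and was at 0.13 after normexp. Cela2a was detected on the control array only and was at least 1.32-fold lower on the FTO array. The 7 tested endothelial, stromal and immune markers had a median of -0.11, from -0.34 for Col3a1 to 0.30 for Cd3e among genes detected on both arrays. The part of these cell types in the receptor values was not tested.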
